A study of Mus musculus with 4 samples.

Results

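The genes described here are the 58 zinc finger genes whose symbol is Zfp followed by a number of at least 900 and below 1000 with no suffix, out of 25209 genes in the count tables. They were taken by symbol alone, whatever their counts. Their working name calls them young, but neither the symbol nor the counts measure the age of a gene, and no age was examined. The libraries are droplet scRNA-seq of day 6 embryoid bodies (EBs), aggregates in which mouse embryonic stem cells (ESCs) differentiate, here made from V6.5 ESCs in hanging drops in medium with serum and without inhibitors or LIF. WT and LSD1KO EBs were compared, with 2 libraries each. LSD1KO ESCs carry a CRISPR/Cas9 deletion of the promoter and first exon of Lsd1 (Kdm1a), which encodes a histone demethylase. The methods name independent cell clones for the RNA-seq experiments and none for scRNA-seq, so whether the LSD1KO libraries come from separate clones is uncertain. The study describes the 2 libraries of a genotype as biological replicates.

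Zinc finger proteins of the KRAB class bind DNA through arrays of C2H2 fingers and recruit the co-repressor TRIM28, which brings the H3K9 methyltransferase SETDB1 to the bound site. Many of them bind endogenous retroviruses and other transposable elements. Their genes often lie side by side in clusters of similar copies, and several such clusters are known for expression in ESCs and early embryos. Which of the 58 members encode a KRAB domain was not examined.

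In the NCBI37 (mm9) annotation, 33 members were found by symbol and 24 by an older symbol, and Zfp994 was not placed. The 57 placed members lie on 12 chromosomes. With neighbours at most 500 kb apart, 34 of them fall into 6 clusters of at least 3 members. The largest holds 11 members on chromosome 4 (positions 145100662 to 147222475): Zfp990, Zfp980, Zfp981, Zfp992, Zfp987, Zfp991, Zfp982, Zfp985, Zfp979, Zfp984 and Zfp933. Zfp990 and Zfp980 overlap there on the same strand, so the division of UMIs between them is uncertain. A chromosome 17 cluster (21704010 to 23004101) holds 9 members. Zfp977, Zfp976, Zfp975 and Zfp936 lie on chromosome 7 (49835153 to 50445851), and 3 members lie on chromosome 8 (71750242 to 72273869). Chromosome 2 has a cluster of 3 members (175918013 to 176503794) and, distal to it, one of 4 (177249438 to 177813181). The remaining 24 members, Zfp994 counted among them, were placed in no such cluster. Zfp994 is counted there only for want of a position. In RefSeq gene order it lies between Zfp947 and Zfp944 of the chromosome 17 cluster.

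The results below turn on the chromosome 7 and chromosome 4 clusters, so promoters of both are printed. They run from 250 bases before to 50 bases after the annotated gene start, 5′ to 3′ on the gene's strand, from RefSeq on GRCm38.p6 (52 of 58 members had an entry). The 4 chromosome 7 promoters were 88.4% to 92.9% identical in pairwise alignment. Capitals mark GCCATNTT, letters picked after the sequences and the expression values had been seen. They are at chr7:43177340-43177639 on the plus strand for Zfp936, and on the minus strand at chr7:42592496-42592795 for Zfp977, chr7:42692669-42692968 for Zfp975 and chr7:42642555-42642854 for Zfp976.
Zfp936: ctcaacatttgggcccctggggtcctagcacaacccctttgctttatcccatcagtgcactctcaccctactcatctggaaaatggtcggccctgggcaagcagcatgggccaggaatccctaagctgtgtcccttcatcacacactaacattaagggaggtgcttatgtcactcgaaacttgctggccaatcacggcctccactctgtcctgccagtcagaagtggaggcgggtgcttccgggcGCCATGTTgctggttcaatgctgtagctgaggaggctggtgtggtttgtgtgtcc
Zfp977: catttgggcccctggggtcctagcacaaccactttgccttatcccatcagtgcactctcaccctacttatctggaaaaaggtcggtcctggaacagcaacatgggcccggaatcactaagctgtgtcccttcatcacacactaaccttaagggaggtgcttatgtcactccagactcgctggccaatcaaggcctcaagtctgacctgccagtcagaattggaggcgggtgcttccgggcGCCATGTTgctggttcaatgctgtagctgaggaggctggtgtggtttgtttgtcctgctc
Zfp975: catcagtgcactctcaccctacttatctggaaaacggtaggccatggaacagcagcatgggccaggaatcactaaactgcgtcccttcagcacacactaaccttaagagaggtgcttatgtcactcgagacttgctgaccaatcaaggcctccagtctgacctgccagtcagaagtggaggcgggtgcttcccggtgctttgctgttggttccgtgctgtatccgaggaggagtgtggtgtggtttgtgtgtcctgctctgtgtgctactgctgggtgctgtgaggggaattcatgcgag
Zfp976: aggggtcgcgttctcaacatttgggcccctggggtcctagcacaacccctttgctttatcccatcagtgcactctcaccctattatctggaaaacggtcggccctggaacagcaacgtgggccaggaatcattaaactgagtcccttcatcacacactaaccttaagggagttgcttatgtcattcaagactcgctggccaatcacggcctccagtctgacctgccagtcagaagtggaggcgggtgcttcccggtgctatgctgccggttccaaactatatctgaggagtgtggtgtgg
Zfp936 and Zfp977 hold these letters, 5 and 10 bases before the gene start, and Zfp975 and Zfp976 do not. On either strand they occur in 1988 of all 32851 promoters of this length (6.05%) and in 5 of the 60 promoters of members.

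On chromosome 4 the promoters of Zfp979, Zfp980, Zfp981, Zfp984, Zfp985 and Zfp987 were 80.1% to 93.7% identical in pairs, whereas Zfp933, at the distal end of the cluster, was 52.7% to 58.8% identical to them. Capitals below mark the longest run shared by these 6, a chosen part of the cluster, found after the values had been seen. The coordinates are chr4:146097062-146097361 (plus) for Zfp987, chr4:147642459-147642758 (minus) for Zfp979, chr4:146514670-146514969 (plus) for Zfp981, chr4:147809739-147810038 (minus) for Zfp984 and chr4:147848369-147848668 (minus) for Zfp933.
Zfp987: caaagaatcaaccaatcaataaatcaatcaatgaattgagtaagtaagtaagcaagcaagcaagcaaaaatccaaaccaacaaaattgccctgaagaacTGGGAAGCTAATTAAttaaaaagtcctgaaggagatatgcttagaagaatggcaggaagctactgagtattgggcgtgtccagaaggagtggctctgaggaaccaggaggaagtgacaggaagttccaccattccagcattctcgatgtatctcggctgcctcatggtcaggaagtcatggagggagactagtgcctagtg
Zfp979: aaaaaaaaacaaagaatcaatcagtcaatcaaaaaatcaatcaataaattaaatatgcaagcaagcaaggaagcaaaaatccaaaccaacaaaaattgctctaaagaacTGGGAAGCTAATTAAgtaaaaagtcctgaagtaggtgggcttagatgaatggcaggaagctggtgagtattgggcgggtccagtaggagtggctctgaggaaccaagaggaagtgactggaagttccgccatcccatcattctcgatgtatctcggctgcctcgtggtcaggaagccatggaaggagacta
Zfp981: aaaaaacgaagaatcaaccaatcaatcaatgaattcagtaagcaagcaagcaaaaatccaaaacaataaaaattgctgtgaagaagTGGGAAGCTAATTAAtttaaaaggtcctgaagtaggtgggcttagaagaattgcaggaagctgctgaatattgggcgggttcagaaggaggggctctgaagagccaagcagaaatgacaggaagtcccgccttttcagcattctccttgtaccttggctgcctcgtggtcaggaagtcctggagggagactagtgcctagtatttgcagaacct
Zfp984: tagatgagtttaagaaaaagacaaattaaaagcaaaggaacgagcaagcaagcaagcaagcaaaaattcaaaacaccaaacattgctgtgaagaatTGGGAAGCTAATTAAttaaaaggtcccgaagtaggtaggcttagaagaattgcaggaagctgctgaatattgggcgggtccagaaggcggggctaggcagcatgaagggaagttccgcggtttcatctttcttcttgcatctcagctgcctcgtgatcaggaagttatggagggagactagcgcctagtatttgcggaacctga
Zfp933: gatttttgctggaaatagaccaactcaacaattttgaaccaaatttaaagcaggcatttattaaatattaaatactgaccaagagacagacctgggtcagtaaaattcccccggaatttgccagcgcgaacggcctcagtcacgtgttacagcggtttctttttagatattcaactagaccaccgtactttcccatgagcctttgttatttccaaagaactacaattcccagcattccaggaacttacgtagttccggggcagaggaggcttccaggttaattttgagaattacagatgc
The run TGGGAAGCTAATTAA was present on either strand in 12 of 32851 promoters (0.0365%), and all 12 genes are on chromosome 4. Of these, 7 are members (Zfp982 in addition to the 6), and the others are Gm13212, Rex2, Zfp534, Zfp600 and Zfp988, the last of which is not a symbol in the count tables. Zfp933, Zfp990, Zfp991 and Zfp992 of the cluster are not among the 12, and only 52 of 58 members had a promoter entry. A shared run is a description of related sequences and names no binding site.

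Each library held 72285943 to 75406512 UMIs (unique molecular identifiers, 1 per captured transcript end). Cells were barcodes with 500 or more UMIs and 500 or more genes, 4393 and 6828 in WT and 5693 and 3045 in LSD1KO, with 3 to 15 barcodes shared between any 2 libraries. Levels are given in CPM, UMIs per 1000000 UMIs of the cells summed, and are not compared between genes. Kdm1a stood at 217 and 229 CPM in WT and at 1.16 and 0.841 in LSD1KO, although 3′ tags lie outside the deleted part. A cell was called pluripotent-like with at least 2 of 6 pluripotency markers (Pou5f1, Nanog, Zfp42, Tdgf1, Utf1, Dppa5a) and at most 1 of 25 lineage markers, and differentiated with the reverse. The pluripotent-like gate held 31, 226, 1855 and 696 cells in WT 1, WT 2, LSD1KO 1 and LSD1KO 2, and the differentiated gate 3093, 4703, 364 and 140. Cells with 2 or more markers of both kinds (134, 281, 2208 and 1580) entered neither gate. Stmn2, 1 of the neural markers, was itself at 353 and 280 CPM in LSD1KO pluripotent-like cells, so a gate without it was tried, a choice made once the values were known. The LSD1KO pluripotent-like cells also differed from the WT ones in some pluripotency genes outside the gate. Klf2 was at 12.3 and 14.4 against 118 and 222 CPM, and Sox2, Fgf4 and Esrrb were also lower in both LSD1KO libraries. Dppa2 (15.9 and 27.0 against 15.9 and 21.0) and Dppa4 (26.5 and 41.1 against 35.1 and 76.8) overlapped between genotypes.

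Of the 58 members, 52 passed the filter on low counts and were tested in whole EBs, with 292 to 10385 UMIs each over the 4 libraries. Zfp965, Zfp966, Zfp967 and Zfp968 had no UMI, Zfp973 had 5 and Zfp957 had 11. Zfp973 is the only detected member of the proximal chromosome 2 cluster. To see whether reads of a member could be assigned to it, the share of 90-base stretches in the last 500 bases of its transcripts that recur in the genome was counted, since reads that fit several genes are left out of the counts. This share was 100% for Zfp965, Zfp966, Zfp967, Zfp968 and Zfp973, and 0% for 22 members, Zfp957 among them.

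**Figure D1:**
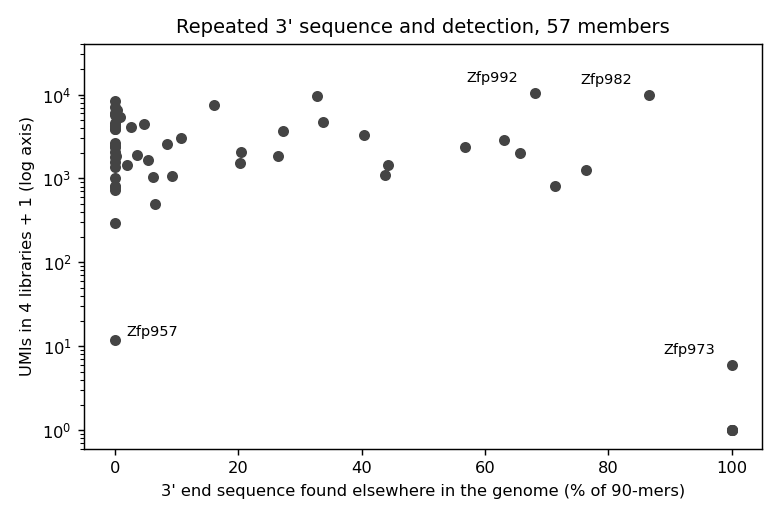
UMIs of each of the 57 placed members in all 4 libraries plus 1 (log axis) against the percent of 90-base stretches near its 3′ end that occur elsewhere in the genome. The 5 members at 100% have 0 to 5 UMIs in all, while Zfp982 and Zfp992 have 9788 and 10385 UMIs at 86.6% and 68.1%.

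The 0 to 5 UMIs of these members therefore say nothing about the level of their transcripts. In the chromosome 4 cluster the share was high for Zfp982 (86.6%), Zfp992 (68.1%), Zfp991 (65.7%), Zfp987 (63%) and Zfp980 (56.8%), so part of their reads may be lost or belong to a near-identical copy. It was low for Zfp979 (0.868%), Zfp990 (2.62%) and Zfp985 (8.41%), and 0% for Zfp936, Zfp976 and Zfp977 on chromosome 7.

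The members were first compared between genotypes in whole EBs. Zfp936 had the largest difference, followed by members of the chromosome 4 cluster, while Zfp975 and Zfp976, which lie in the same cluster as Zfp936, were lower in LSD1KO. By edgeR's quasi-likelihood test with Benjamini-Hochberg adjustment over 16955 genes, 14 of 52 tested members were higher and 13 lower in LSD1KO. Among all genes tested 44.2% were called, 22.6% higher and 21.6% lower, and the median log2 fold change was 0.03 for the members and 0.00 for all genes. With library totals in place of TMM factors, which shifts the median of all genes by 0.13, the split was 18 higher and 10 lower. Of the 307 genes Zfp1 to Zfp899, 293 were tested, 39 were higher and 49 lower, with a median of -0.07. In these sums a change in the share of cells of a type and a change in RNA per cell cannot be told apart.

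Zfp936 stood at 0.473 and 1.62 CPM in WT and at 16.2 and 18.6 in LSD1KO, from 30, 111, 1084 and 1170 UMIs. The genotypes did not overlap, and the WT libraries differed among themselves by more than the LSD1KO ones in proportion. The log2 fold change was 3.89 ± 0.53 (SE), with an adjusted p of 0.00402. Its neighbour Zfp977 was at 1.64 and 1.55 in WT and 4.34 and 4.58 in LSD1KO, a log2 fold change of 1.35 ± 0.19 (adjusted p = 0.00433).

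Zfp975, in the same cluster, was at 20.9 and 19.0 CPM in WT and 7.82 and 8.76 in LSD1KO. Zfp976 was at 18.3 and 20.2 against 9.10 and 11.2. Neither gene overlapped between genotypes, and both were lower in LSD1KO, by log2 fold changes of -1.40 ± 0.13 and -1.06 ± 0.16 (adjusted p = 0.00124 and 0.00525). The 4 chromosome 7 members thus split into 2 higher and 2 lower, and their summed level was 41.4 and 42.4 in WT and 37.4 and 43.1 in LSD1KO.

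**Figure D2:**
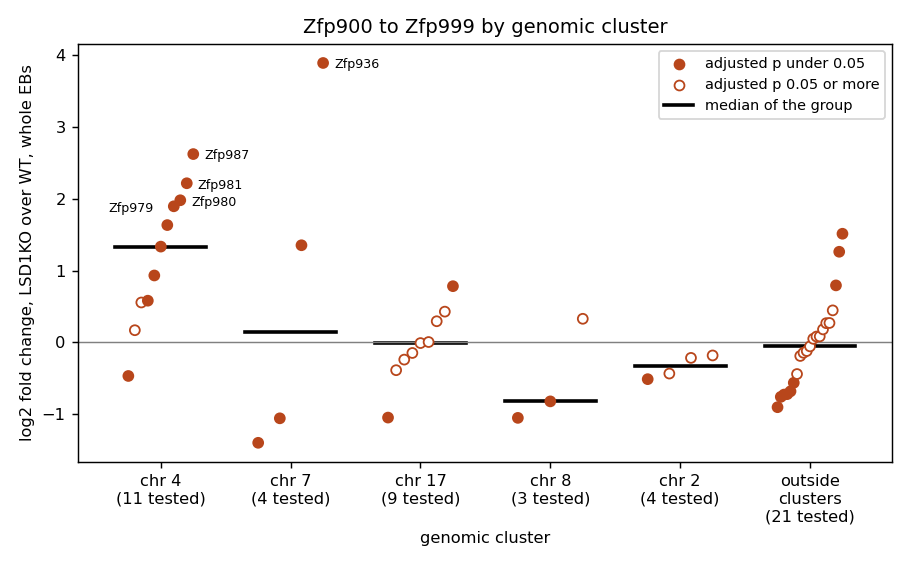
Log2 fold change of LSD1KO over WT in whole EBs for the 52 tested members, grouped by genomic cluster, with filled points for an adjusted p under 0.05 and a bar at each group's median. The chromosome 4 median is 1.34, and the chromosome 7 members lie on both sides of 0.

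In the chromosome 4 cluster 8 of 11 members were higher and 1 was lower in LSD1KO, with a median log2 fold change of 1.34. Over all genes tested 22.6% were higher and 21.6% lower. Zfp987 was at 1.85 and 3.88 CPM in WT and 14.4 and 24.6 in LSD1KO (log2 fold change 2.62 ± 0.44, adjusted p = 0.00732). Zfp979, whose 3′ sequence is nearly unique, was at 7.01 and 9.27 against 27.7 and 39.0 (1.90 ± 0.24, adjusted p = 0.00324). In both genes the lowest LSD1KO library was above the highest WT library. Zfp992, the member with the most UMIs, was at 20.7 and 21.6 against 54.6 and 62.4 (1.34 ± 0.12, adjusted p = 0.00115).

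Zfp981, Zfp980, Zfp985, Zfp982 and Zfp991 were also higher, with log2 fold changes from 0.58 for Zfp991 to 2.22 for Zfp981. In all 8 the LSD1KO 2 library was the highest of the 4. Zfp990, at 11.9 and 12.1 in WT and 15.8 and 22.9 in LSD1KO, did not pass the test (adjusted p = 0.0711), nor did Zfp984 (27.2 and 24.98 against 30.1 and 34.1, adjusted p = 0.25). Promoters of Zfp982, Zfp990, Zfp991 and Zfp992 were not aligned, so promoter likeness and direction cannot be set against each other over the cluster. Zfp933 was lower, at 10.7 and 9.81 in WT and 8.25 and 8.01 in LSD1KO (-0.47, adjusted p = 0.0309). That call was lost whenever any 1 of the 4 libraries was left out. Of 8 other genes of the span with values, 7 were higher, among them Rex2 (2.81) and Zfp600 (2.40), beside 22.6% of all genes tested. The ribosomal protein pseudogene Rps19-ps3 was at 0.05.

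In the other clusters fewer members passed in number. The share called was 22.2% on chromosome 17, 66.7% on chromosome 8 and 25% on distal chromosome 2, beside 44.2% of all genes. On chromosome 17, Zfp946 was higher (0.78) and Zfp983 lower (-1.05) of 9 members. On chromosome 8, Zfp963 and Zfp964 were lower (-0.82 and -1.05) of 3, and on distal chromosome 2 Zfp971 was lower (-0.51) of 4. Leaving out any 1 library ended the call of Zfp971, leaving out LSD1KO 2 that of Zfp963, and leaving out WT 1 or either LSD1KO library those of Zfp964 and of Zfp991 on chromosome 4. Among 21 tested members in no cluster, Zfp994 included, 3 were higher and 6 lower, with a median of -0.06. The share called there, 42.9%, was near that of all genes.

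Zfp951, on chromosome 5, had the smallest adjusted p of all members (0.000883), at 8.08 and 8.54 CPM in WT and 26.3 and 25.8 in LSD1KO, a log2 fold change of 1.51 ± 0.12. Zfp941, on chromosome 7 outside the cluster, was at 3.79 and 4.86 against 10.4 and 12.4 (1.26). Zfp934, Zfp948, Zfp942, Zfp961, Zfp945 and Zfp958, which with Zfp992, Zfp982, Zfp984 and Zfp979 have the most UMIs, did not pass the test, with log2 fold changes from -0.24 to 0.43.

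The gates were then compared within WT, to describe how the members vary between pluripotent-like and differentiated cells. Of 52 members 11 were higher in pluripotent-like cells and 1, Zfp983, was lower, where 17.3% of 14889 genes were called in either direction, 7.51% higher and 9.76% lower. The call of Zfp983 rests on 1 and 2 UMIs in the pluripotent-like cells of WT 1 and WT 2. The 11 were Zfp936 and Zfp977 on chromosome 7 and 9 of the 11 chromosome 4 members, all but Zfp991 and Zfp933. Of the 21 tested members in no cluster, 0 passed by edgeR, and 1 had an unadjusted p under 0.05. WT 1 had only 31 pluripotent-like cells and 313662 UMIs in them, so 1 UMI there is worth 3.19 CPM.

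Zfp987 was at 47.8 and 50.8 CPM in the pluripotent-like cells of WT 1 and WT 2 and at 1.16 and 0.746 in their differentiated cells (log2 difference 5.76 ± 0.44, adjusted p = 1.21e-36 by edgeR, with the library as a block). Zfp936 was at 15.9 and 20.6 against 0.200 and 0.306, from 5 and 49 against 11 and 16 UMIs (6.10 ± 0.78, adjusted p = 2.31e-13). Both were higher in the pluripotent-like cells of each library by far more than the libraries differed. Zfp980 (4.38), Zfp981 (4.31), Zfp985 (3.16) and Zfp979 (2.15) had smaller differences, and Zfp982, Zfp992, Zfp990 and Zfp984 differed by 1.12 to 1.96.

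The pooled level of the 11 chromosome 4 members was 405 and 399 CPM in WT pluripotent-like cells and 107 and 103 in WT differentiated cells. Among WT lineage gates it was 80.3 and 84.4 in mesoderm, 116 and 108 in endoderm and 131 and 125 in neural cells. In the small endothelial gate it was 113 and 70.0 CPM, from 87 and 55 UMIs, so the libraries lay further apart there than in the other gates. All 4 lineages were below the pluripotent-like cells. Members in no cluster together stood at 195 and 213 in pluripotent-like and 213 and 223 in differentiated WT cells.

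In LSD1KO, 8 of 51 members were higher in pluripotent-like than in differentiated cells and none was lower, beside 10.6% of 13344 genes called, 4.38% of them higher and 6.18% lower. All 8 belong to the chromosome 4 cluster. The differences ran from 0.65 for Zfp992 to 2.54 for Zfp981. Without the library block edgeR called 0 members, with 16 at an unadjusted p under 0.05, and with the block DESeq2 called 5. Zfp987 was at 18.0 and 30.8 CPM in pluripotent-like and 4.73 and 7.80 in differentiated LSD1KO cells (2.04 ± 0.23, adjusted p = 0.000778). Zfp936 was at 16.8 and 18.2 against 13.4 and 12.6, and did not pass (0.50 ± 0.21, adjusted p = 0.166).

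**Figure D3:**
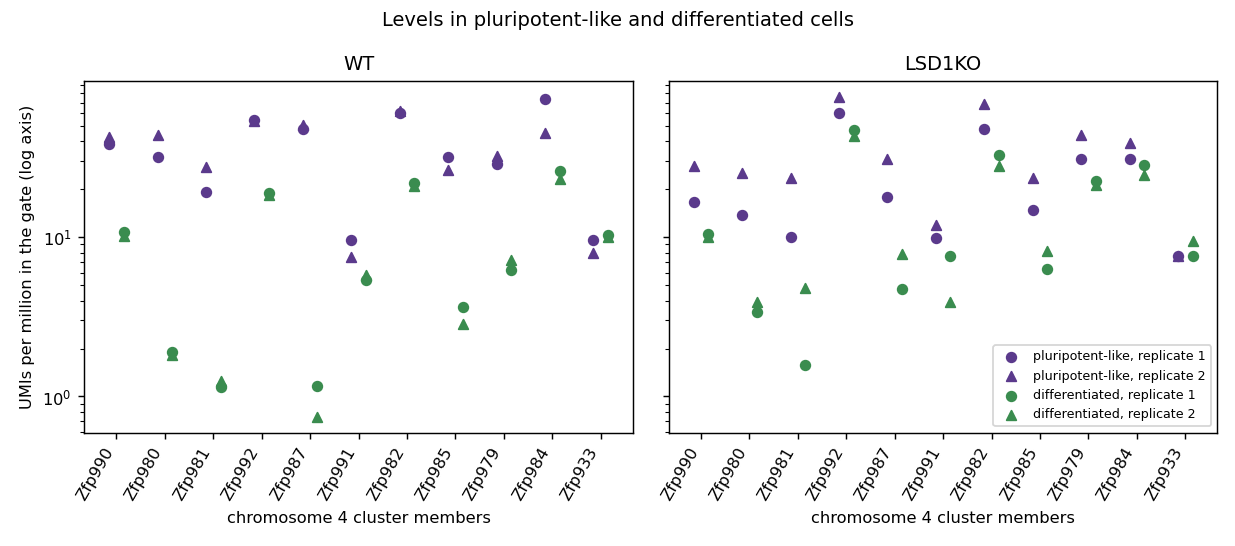
CPM (log axis) of the 11 chromosome 4 members in pluripotent-like and differentiated cells of each library, WT on the left and LSD1KO on the right, 1 point per library. In WT Zfp987 differs between gates from 47.8 and 50.8 to 1.16 and 0.746, and in LSD1KO from 18.0 and 30.8 to 4.73 and 7.80.

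Between genotypes inside the pluripotent-like gate, 1 of 51 members was higher in LSD1KO and 5 were lower, beside 11.1% of 13040 genes called (5.9% higher and 5.25% lower). Zfp951 was the higher one, at 3.19 and 9.23 CPM in WT and 24.9 and 27.5 in LSD1KO (1.51 ± 0.31, adjusted p = 0.0144). Its WT values rest on 1 and 22 UMIs. Zfp987, Zfp980, Zfp990, Zfp976 and Zfp938 were lower, by log2 fold changes from -1.06 to -1.23. All 6 calls were lost without WT 2, where 0 members were called and 4 had an unadjusted p under 0.05. Without LSD1KO 1 only 1 member was called, and DESeq2 called 0, with 7 at an unadjusted p under 0.05. Zfp936 did not differ past the threshold there (-0.31 ± 0.25, adjusted p = 0.471).

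Inside the differentiated gate 6 of 52 members were higher in LSD1KO and 4 were lower, beside 21.1% of 15389 genes called, 12% higher and 9.18% lower. With library totals only, which moves the median of all genes there from -0.03 to 0.20, the split was 9 higher and 3 lower. Zfp936 had the largest difference, at 0.200 and 0.306 CPM in WT (11 and 16 UMIs) and 13.4 and 12.6 in LSD1KO (51 and 29 UMIs). The genotypes did not overlap, and the log2 fold change was 5.43 ± 0.40 (adjusted p = 0.000375). Zfp987 was at 1.16 and 0.746 against 4.73 and 7.80 (2.44 ± 0.44, adjusted p = 0.00869), Zfp979 at 6.26 and 7.18 against 22.6 and 21.2 (1.48 ± 0.21, adjusted p = 0.00365).

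Zfp992, Zfp951 and Zfp941 were higher by 1.04 to 1.14 and Zfp975, Zfp976, Zfp938 and Zfp935 were lower by -0.93 to -1.12. Only Zfp936, Zfp979 and Zfp992 were called in each fit that left out 1 library. Without WT 1, and likewise without WT 2, 3 members were called, and Zfp987 was among those lost (adjusted p up to 0.0959).

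The LSD1KO differentiated gate is small and of a different makeup, so values within lineage gates are also given. The part of this makeup in the values of the whole gate was not tested. Cells of the neural gate made up 134 of its 364 cells and 83 of its 140, against 138 of 3093 and 445 of 4703 in WT. In neural cells alone Zfp936 was at 0.926 and 0.401 CPM in WT and 12.2 and 6.53 in LSD1KO. These WT values rest on 2 and 2 UMIs, and the LSD1KO ones on 18 and 10. Zfp979 was at 8.80 and 9.23 against 19.0 and 20.2, so both genes were higher in LSD1KO in the neural gate too. Zfp987 was at 1.85 and 1.60 against 2.72 and 2.61, from 4 to 8 UMIs. The pooled chromosome 4 level in the neural gate was 131 and 125 against 147 and 124, which overlap. In the mesoderm gate it was 80.3 and 84.4 in WT against 202 and 328 in LSD1KO, the latter from 53 and 17 UMIs. In the endoderm gate it was 116 and 108 against 180 and 291, the latter from 55 and 19 UMIs. These LSD1KO gates held only 19 and 5 mesoderm and 24 and 3 endoderm cells. Neural markers differed between genotypes over the whole differentiated gate. Shh was at 13.98 and 26.9 CPM in WT and 0 and 0 in LSD1KO, and Zic1 at 0.05447 and 0.03827 against 11.82 and 31.19. Whether the neural cells of the genotypes are alike was not tested.

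RNA outside cells, taken from barcodes with at most 100 UMIs, also differed between genotypes. Zfp936 was at 1.24 and 1.23 CPM there in WT and at 15.4 and 19.3 in LSD1KO, above its level in the LSD1KO differentiated cells. The pooled chromosome 4 level outside cells was 112 and 90.3 in WT and 231 and 266 in LSD1KO. Pluripotency genes not used in the gates did not fall alike. Dppa2 was at 15.9 and 27.0 in LSD1KO pluripotent-like cells and at 4.202 and 4.33 in differentiated ones. Klf2, Dppa4 and Fgf4 were also far lower in the differentiated cells of both libraries. Sox2 fell only from 27.14 and 46.3 to 20.75 and 39.85. Esrrb fell from 1.827 and 3.348 to 1.05 and 1.299, the latter from 4 and 3 UMIs. Zfp936 was at 16.8 and 18.2 in the pluripotent-like and at 13.4 and 12.6 in the differentiated LSD1KO cells. Tdgf1, a gate marker, was at 342 CPM in the differentiated gate of LSD1KO 1 and at 38.5 in that of LSD1KO 2, against 442 and 412 in their pluripotent-like gates. The part of free RNA and of residual pluripotent-like cells in the differentiated values was not tested.

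**Figure D4:**
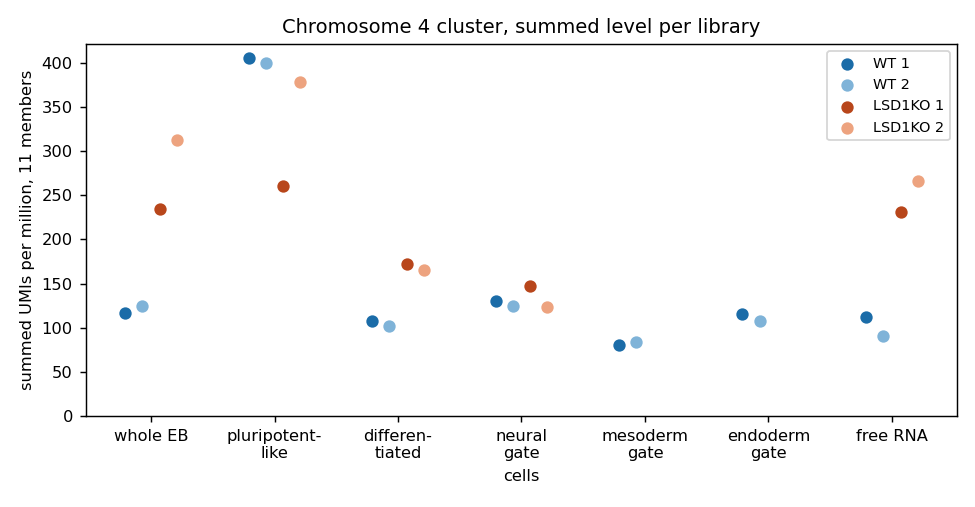
Summed CPM of the 11 chromosome 4 members in each library, by cells (whole EB, the gates, WT mesoderm and endoderm gates, and barcodes outside cells). The LSD1KO mesoderm and endoderm gates, of 3 to 24 cells, are not drawn. The WT pluripotent-like sums are 405 and 399, the whole-EB sums are 117 and 125 in WT and 235 and 313 in LSD1KO, and the neural sums overlap between genotypes.

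Whether the genotype difference itself differed between the gates was tested as an interaction. Of 52 members 7 had a significantly smaller LSD1KO over WT ratio in pluripotent-like than in differentiated cells and none a larger one, beside 9.24% of 13992 genes called, 4.97% lower and 4.27% higher. They were Zfp936 (-5.56 ± 0.54, adjusted p = 2.12e-15), Zfp987 (-3.73 ± 0.47, adjusted p = 1.54e-10), Zfp980, Zfp985, Zfp981, Zfp979 and Zfp992 (-1.97 to -0.84). All but Zfp936 lie in the chromosome 4 cluster. Zfp936 and Zfp987 were called in each of the 4 fits that left out 1 library and with DESeq2, and 2 to 4 members were called in those fits. The calls of Zfp981 and Zfp992 were lost whichever library was left out, and those of Zfp979, Zfp980 and Zfp985 without WT 2 and without LSD1KO 1. That of Zfp979 was also lost without WT 1, and that of Zfp985 without LSD1KO 2. With the gate without Stmn2 3 members passed.

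**Figure D5:**
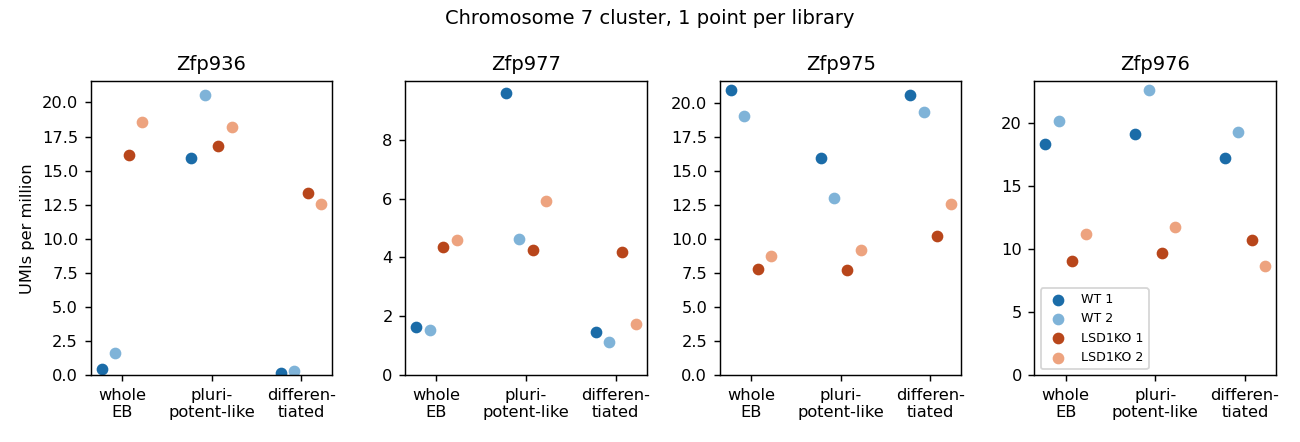
CPM of the 4 chromosome 7 cluster members in whole EBs and in each gate, 1 point per library, each axis from 0. Zfp936 is near 0 only in WT whole EBs and WT differentiated cells, while for Zfp975 and Zfp976 both LSD1KO points lie under both WT points in each set of cells.

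Zfp975 and Zfp976 showed no such interaction by this test. In the pluripotent-like cells Zfp975 was at 15.9 and 13.0 in WT and 7.77 and 9.18 in LSD1KO, and in the differentiated cells at 20.5 and 19.3 against 10.2 and 12.6. For Zfp975 only the difference in differentiated cells passed edgeR's test (adjusted p = 0.132 in pluripotent-like cells). Its pluripotent-like value in WT 1 rests on 5 UMIs.

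All 58 members together stood at 556 and 551 CPM in WT whole EBs and at 693 and 795 in LSD1KO, with means of 553 ± 2.85 and 744 ± 72.04 (SD, n = 2). The smallest exact permutation p that 4 libraries in 2 groups allow is 0.333, so no test of the sums was run. Zfp1 to Zfp899 stood at 5764 and 5385 against 5632 and 5779. The chromosome 4 cluster stood at 117 and 125 against 235 and 313, which is most of the difference, and members in no cluster were at 219 and 223 against 231 and 246. In pluripotent-like cells the summed members overlapped between genotypes, at 835 and 850 in WT and 728 and 888 in LSD1KO.

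The RNA of genes for proteins that KRAB zinc finger proteins work with was tested in the same whole-EB fit. Of 14 such genes 4 were higher in LSD1KO whole EBs, namely Trim28 (0.46, the co-repressor), Uhrf1 (0.75, a maintenance methylation factor), Cbx1 (0.48, an HP1 protein) and Smarcad1 (0.48, a chromatin remodeller). Hdac2, a histone deacetylase, was lower (-0.42), and Setdb1 was at -0.14 (adjusted p = 0.211). Of 9 tested other KRAB zinc finger genes 4 were higher: Zfp57 (0.72), which guards imprinted loci, Zfp809 (1.10), which silences murine leukaemia type proviruses, Zfp600 (2.40) and Zfp819 (2.21). Zfp600 lies within the chromosome 4 span. Beside the 44.2% called over all genes, 35.7% of the first list and 44.4% of the second were called, the first below and the second near that background.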

How the data were processed

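Each of the 4 libraries was deposited as raw UMI counts per gene and barcode; the authors aligned reads to mm9 and counted them with Cell Ranger 7.1.0 at default settings, which counts intronic reads and drops reads matching several genes. The unfiltered matrices hold empty barcodes. Cells had 500 or more UMIs and 500 or more genes, the study's filter, with no doublet caller and no doublet removal. Counts were summed per library and gate, and tested with edgeR 4.0.16 (TMM, filterByExpr, quasi-likelihood) across all genes, with gate markers left out of gated tests and no gated test under 30 cells. Levels are CPM of the plain total, and fold changes use TMM factors. DESeq2 1.42.0 was an alternative. Promoters were aligned with Biopython 1.88. Steps were tested on simulated counts. Described in full are the 10 members with most UMIs, the 10 with the largest called whole-EB change and at least 100 UMIs, up to 10 called per gated fit and members of clusters. Members and lists were chosen with earlier results of these data known. Protein sequences were not used here.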

Additional observations from a re-analysis of the deposited data

Results flagged for a closer look

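The difference between genotypes itself differed between pluripotent-like and differentiated cells for 7 members, by a test of the interaction (edgeR, adjusted p under the threshold of 0.05). On the log2 scale, pluripotent-like minus differentiated, the interaction was -5.56 for Zfp936, -3.73 for Zfp987, -1.97 for Zfp980, -1.79 for Zfp981, -1.70 for Zfp985, -1.33 for Zfp979 and -0.84 for Zfp992. Over all 13992 genes tested 9.24% were called. Zfp936 and Zfp987 kept the call in each of the 4 fits that left out 1 library, Zfp981 and Zfp992 lost it in all 4, and Zfp979, Zfp980 and Zfp985 lost it in 2 or 3. A negative value means a lower LSD1KO over WT ratio in pluripotent-like than in differentiated cells. The WT 1 pluripotent-like sum rests on 31 cells, and the LSD1KO differentiated sums on 364 and 140 cells.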

How the results depend on the processing

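Of 660 values of single members under an alternative, 529 kept direction and side of the threshold, 126 lost the call, 4 gained it and 1 reversed: Zfp961, uncalled at -0.14, which ran from -0.3059 to 0.003016 with 1 library left out and was positive without LSD1KO 1. Calls in whole EBs were 19 to 23 with 1 library left out, against 27, and 0 to 5 in the pluripotent-like gate (6), 3 to 13 in the differentiated gate (10) and 2 to 4 for the interaction (7). DESeq2 called 0 members in the pluripotent-like gate, 5 of 8 between LSD1KO gates and 4 interactions. Library totals only gave 5 between LSD1KO gates, and no library block gave 0. Requiring 0 markers of the other gate gave 4 in the differentiated gate, and the gate without Stmn2, added after seeing the data, 3 interactions. Clusters with gaps of at most 200 kb held 17 members against 34. The causes were not tested, beyond fewer samples or members entering. The replicate number as a block gave 29 calls in whole EBs, 6 and 11 in the gates, and changed no count by over 1.5 times. Over genes, the deviation of replicate 1 from its genotype's mean correlated at 0.156 between WT and LSD1KO. With 2 libraries per genotype this cannot show pairing. Stricter cells, at least 3 markers and 0 other markers were not run for the pluripotent-like gate, the WT gates and the interaction, since WT 1 kept under 30 cells. Depth limits the gates: 31 WT 1 pluripotent-like cells held 313662 UMIs.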
